A study of Mus musculus with 10 samples.

Results

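The Wnt pathway was examined at its ligands, receptors, secreted agonists and antagonists, and at the core of its intracellular relay, in dorsal root ganglia (DRG) of mouse embryos in which *Dach1* was deleted with a *Wnt1*-driven Cre. The members were chosen by name, as all *Wnt*, *Fzd*, *Rspo*, *Dkk* and *Sfrp* genes together with *Lrp5*, *Lrp6*, *Axin1*, *Axin2*, *Ctnnb1*, *Lef1*, *Tcf7*, *Tcf7l1* and *Tcf7l2*. This gave 50 of the 55414 genes listed in every library, namely 19 ligands, 12 receptors, 4 R-spondins, 8 antagonists, 3 intracellular genes and 4 transcription factors. The rule uses names alone.

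Wnt ligands are secreted lipid-modified proteins that bind Frizzled receptors together with the co-receptors Lrp5 and Lrp6. In the canonical branch, binding stops the Axin-containing destruction complex from degrading β-catenin, which *Ctnnb1* encodes, and β-catenin then acts with TCF/LEF factors on target genes such as *Axin2*. R-spondins potentiate the signal, whereas Sfrp proteins and several Dkk proteins restrain it outside the cell. In the embryo, *Wnt1* is known from the dorsal neural tube, and canonical Wnt signalling takes part in the formation of the neural crest and in the sensory fate of its descendants in the DRG.

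Bulk RNA-sequencing was performed on DRG at E18.5 from 5 control and 5 *Wnt1* Cre/+; *Dach1* flox/flox embryos, called *WD1* cKO. Both groups are *Dach1* flox/flox by the labels. Controls were taken to lack the Cre recombinase, which only the titles of the *WD1* cKO samples name. The Cre is driven by regulatory sequence of *Wnt1* and is active in the neural crest lineage, which gives rise to DRG neurons and glia. A ganglion also holds vessels and blood of other origins, and connective tissue, whose origin was not examined here. Every *WD1* cKO embryo carried both the Cre and the *Dach1* deletion, so the presence of the Cre allele and the loss of *Dach1* cannot be told apart in this comparison. The titles of the samples were followed for the grouping, because the genotype field of the labels has the Cre in the samples titled control.

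*Dach1* was measured at 35.1, 38.5, 41.6, 37.1 and 37.4 CPM in control replicates 1 to 5, and at 19.1, 20.7, 19.5, 20.3 and 20.4 CPM in *WD1* cKO replicates 1 to 5, which follows the titles. CPM, the reads of a gene relative to all reads of its library, were computed from the deposited counts after scaling by the trimmed mean of M-values (TMM) method of edgeR. Total counts per library ranged from 19757596 to 34796562. The summed level of 10 neuronal genes was between 9865 and 11330 CPM and that of 8 glial genes between 842 and 1049 CPM over the 10 libraries. Control replicate 3 stood apart by 9 spinal cord genes, which summed to 37.5 CPM there and to 11.4 to 19.4 CPM in the other libraries. *Aqp4* made up most of the sum in the other libraries, at 10.4 to 17.9 CPM, and was at 14.1 CPM in control replicate 3. *Gad1* was at 7.72 CPM there and at most 1.10 CPM elsewhere, and *Slc6a5* at 4.66 and at most 0.364 CPM. *Mnx1*, like *Aqp4*, was not raised there. The 6 haemoglobin and erythroid genes examined summed to between 155 and 243 CPM in replicates 4 and 5 of both groups and to between 510.0 and 2471 CPM in replicates 1 to 3. In bulk DRG, fewer cells of a type and less RNA per cell cannot be told apart.

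The sequence around the transcription start is shown for 3 members named below. *Wnt1* is the gene whose regulatory sequence drives the Cre, though its window is not taken to be that sequence. *Axin2* is the transcriptional readout of the canonical branch. *Wnt2b* was, of the 11 ligands tested, the one with the largest ratio between replicates 4 and 5 and replicates 1 to 3. Each window runs from 250 bases before to 50 bases after the RefSeq transcription start in GRCm38.p6 and is written 5′ to 3′ on the strand of the gene. *Wnt1* lies at chr15:98789607-98789906 on the plus strand, *Axin2* at chr11:108920099-108920398 on the plus strand and *Wnt2b* at chr3:104961660-104961959 on the minus strand.
Wnt1: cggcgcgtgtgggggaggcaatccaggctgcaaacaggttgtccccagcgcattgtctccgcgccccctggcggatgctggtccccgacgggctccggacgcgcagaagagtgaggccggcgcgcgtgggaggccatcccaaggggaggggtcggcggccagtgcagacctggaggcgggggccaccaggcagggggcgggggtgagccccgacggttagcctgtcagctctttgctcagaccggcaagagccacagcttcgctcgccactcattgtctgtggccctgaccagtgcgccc
Axin2: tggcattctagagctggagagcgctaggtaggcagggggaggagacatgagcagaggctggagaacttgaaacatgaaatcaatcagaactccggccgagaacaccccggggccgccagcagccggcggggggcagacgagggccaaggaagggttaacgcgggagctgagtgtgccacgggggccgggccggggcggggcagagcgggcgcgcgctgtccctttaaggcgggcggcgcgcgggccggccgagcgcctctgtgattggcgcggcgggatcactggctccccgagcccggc
Wnt2b: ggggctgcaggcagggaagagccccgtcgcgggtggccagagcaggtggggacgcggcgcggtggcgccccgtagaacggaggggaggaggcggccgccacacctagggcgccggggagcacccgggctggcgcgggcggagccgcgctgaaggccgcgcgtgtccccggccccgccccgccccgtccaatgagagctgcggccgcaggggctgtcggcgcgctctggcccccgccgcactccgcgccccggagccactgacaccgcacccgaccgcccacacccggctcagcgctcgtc
G and C made up 70.7% of the *Wnt1* window, 70.0% of the *Axin2* window and 79.7% of the *Wnt2b* window, against a median of 52.7% over all windows.

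The motifs CTTTGAT and CTTTGAA, core recognition sequences of TCF/LEF factors that do not overlap each other, were searched on both strands in the RefSeq windows, which were at hand for 33 of the 50 members. Of 42 windows of these members, 3 held a motif, which is 7.14% against 8.65% of all 32851 windows of the same length. The 3 sites are shown with 10 bases on either side and the motif in capitals, on the strand of the gene. The *Dkk1* site is at chr19:30549597-30549623 (minus strand), the *Wnt11* site at chr7:98835051-98835077 (plus strand, where the motif reads on the opposite strand) and the *Wnt5b* site at chr6:119449441-119449467 (minus strand).
Dkk1: cctcccaaagCTTTGAAatcccatccc
Wnt11: acgtgggcggATCAAAGcgacggtccg
Wnt5b: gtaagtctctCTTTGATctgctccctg
No motif was found in the windows of *Wnt1*, *Axin2* or *Wnt2b* above. These letters are a description of the windows and locate no binding.

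A first question was which members DRG express at this stage. Levels were compared between genes as CPM per kilobase of exon, averaged over the 10 libraries. *Ctnnb1*, encoding β-catenin, was the most abundant member with 112 CPM per kilobase. Genes grouped by name as antagonists followed, with 39.7 for *Sfrp5*, 31.6 for *Dkk3* and 29.5 for *Sfrp1* CPM per kilobase. Frizzled receptors were measured more evenly, and the highest were *Fzd1* at 9.86, *Fzd2* at 9.79 and *Fzd8* at 8.20 CPM per kilobase. All 12 receptors passed the filter on low counts, which required 10 counts in at least 5 libraries.

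Among the ligands, *Wnt6* led with 8.97 CPM per kilobase, followed by *Wnt2b* at 4.02 and *Wnt9a* at 3.58 CPM per kilobase. *Wnt2b* and *Wnt9a* did not separate, since the libraries of *Wnt2b* had a coefficient of variation of 40.4%. The R-spondin with the highest level was *Rspo2* at 7.40 CPM per kilobase, ahead of *Rspo1* at 4.86 and *Rspo4* at 1.80 CPM per kilobase. *Rspo3* was far lower at 0.230 CPM per kilobase. Of the negative regulators inside the cell, *Axin1* was measured at 7.82 and its inducible paralogue *Axin2* at 1.93 CPM per kilobase. *Tcf7l1*, which encodes a TCF factor known mainly as a repressor, reached 5.01 CPM per kilobase, whereas *Tcf7*, *Tcf7l2* and *Lef1* were at 1.39, 1.17 and 0.197 CPM per kilobase.

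**Figure D1:**
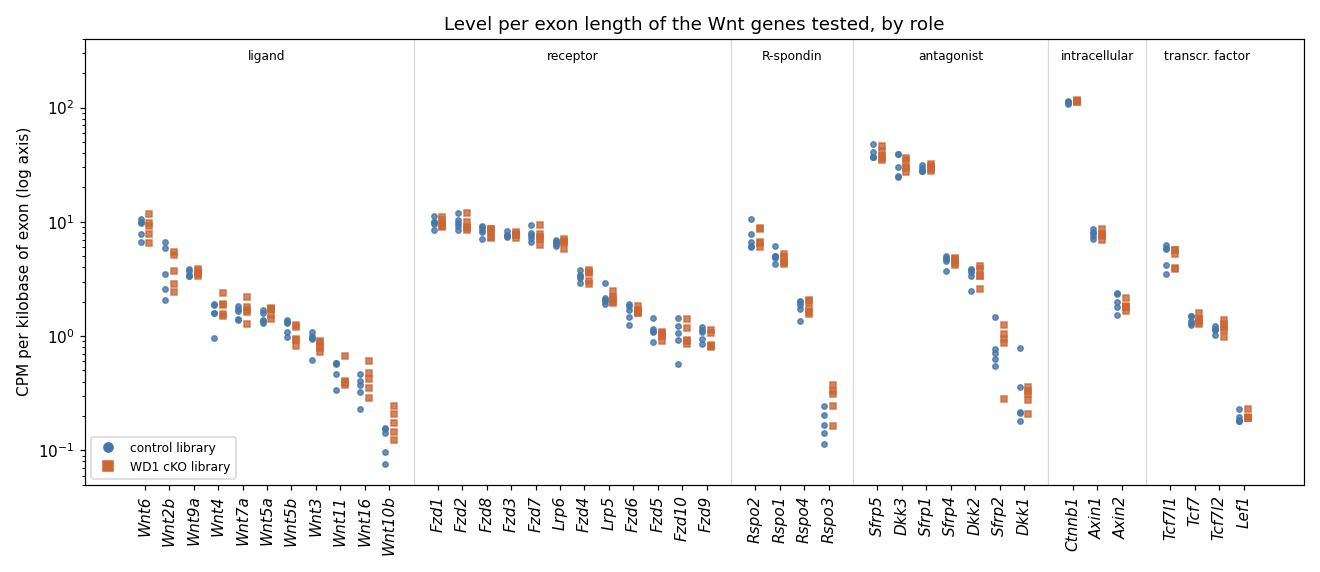
Level of the 41 Wnt genes tested, as CPM per kilobase of exon on a log axis, grouped by role and ordered by mean level. Circles are the 5 control and squares the 5 *WD1* cKO libraries. *Ctnnb1* lies highest at a mean of 112 and *Wnt10b* lowest at 0.152.

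The comparison of *WD1* cKO with control embryos asks whether expression of Wnt pathway genes in DRG differs in embryos carrying the *Wnt1*-driven Cre and lacking *Dach1*. Counts were compared with edgeR's quasi-likelihood test on 17490 genes, of which 41 were members. None of the 41 passed an adjusted p-value of 0.05, against 7 of all genes tested, or 0.0400%. The lowest adjusted p over the members was 1.00 (edgeR quasi-likelihood, Benjamini-Hochberg). An unadjusted p-value under 0.05 was obtained for 1 member, *Rspo3*, which was higher in *WD1* cKO embryos, whereas 4.50% of all genes tested had one. Separated by direction, these shares were 2.12% for higher and 2.38% for lower values in *WD1* cKO embryos. In no member did the CPM ranges of the groups separate, against 1.06% of all genes tested. DESeq2's Wald test gave 0 members at an adjusted and 1 at an unadjusted p-value under 0.05. Over all 17490 genes it gave 19 and 644, respectively.

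The log2 fold change, *WD1* cKO over control, was above 0 in 21 and below 0 in 20 members. Its median was 0.0030 over the members and 0.00022 over all genes tested, and its median absolute value was 0.049 over the members and 0.053 over all genes tested. It ranged from -0.24 for *Dkk1* to 0.74 for *Rspo3*. The 95% interval of the fold change lay within 1 unit of 0 on the log2 scale in 38 members, and within 0.5 in 32. *Rspo3*, *Wnt10b* and *Dkk1* were the 3 members with an interval that reached beyond 1, and each of them was measured under 1 CPM on average in both groups.

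**Figure D2:**
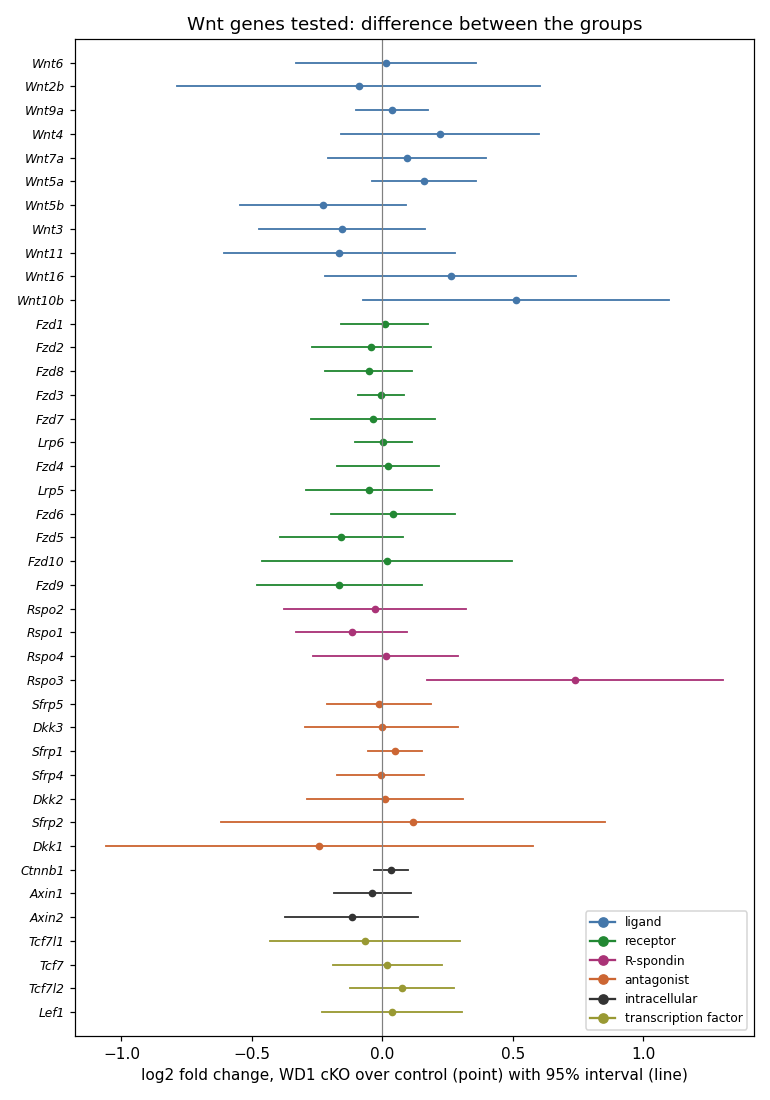
Log2 fold change of the 41 Wnt genes tested, *WD1* cKO over control, as points with their 95% interval from edgeR's quasi-likelihood fit as lines, coloured by role. The interval of *Rspo3* lies above 0 and that of each of the other 40 genes includes 0.

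*Rspo3*, an R-spondin ligand of the Lgr receptors, was measured at 0.634, 0.441, 0.753, 0.515 and 0.352 CPM in control replicates 1 to 5. In *WD1* cKO replicates 1 to 5, it was measured at 0.505, 1.03, 0.960, 0.762 and 1.15 CPM. Of the *WD1* cKO libraries, 4 were above every control library and replicate 1 lay within the control range. These values rest on few reads, between 8 and 16 per control library and between 12 and 40 per *WD1* cKO library. The mean was 0.539 ± 0.158 CPM in control and 0.882 ± 0.254 CPM in *WD1* cKO embryos (SD, 5 embryos each). The log2 fold change was 0.74 with a standard error of 0.26, a 95% interval from 0.17 to 1.30 and an unadjusted p of 0.015 (adjusted p = 1.00, edgeR quasi-likelihood, Benjamini-Hochberg). An exact two-sided permutation test of its mean log2 CPM gave p = 0.048, where the smallest p possible with 5 against 5 is 0.0079. The difference thus did not pass the correction over all genes.

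*Postn* and *Lum*, markers of connective tissue, were the 2 of 8 connective tissue genes with an unadjusted p-value under 0.05, and both were higher in *WD1* cKO embryos, with log2 fold changes of 0.19 and 0.22. Over all genes tested, 4.50% had such a p-value. All 8 genes had a log2 fold change above 0, with a median of 0.099. Their summed level was 6281 CPM in control replicate 3 and between 4564 and 4982 CPM in the other controls. In *WD1* cKO libraries it was between 5139 and 5930 CPM, above every control but replicate 3. The part of connective tissue in the *Rspo3* values was not tested. The other R-spondins differed less, with log2 fold changes of -0.12 for *Rspo1*, -0.028 for *Rspo2* and 0.012 for *Rspo4*.

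*Axin2*, the negative feedback target of canonical signalling, was measured at 10.9, 9.92, 13.1, 13.0 and 8.45 CPM in control replicates 1 to 5. In *WD1* cKO replicates 1 to 5, it was at 9.90, 10.1, 11.8, 9.20 and 9.93 CPM, all within the control range. The log2 fold change was -0.12 with a standard error of 0.12 and a 95% interval from -0.37 to 0.14 (unadjusted p = 0.334, edgeR's quasi-likelihood test). The interval leaves room for a modest decrease and for a smaller increase.

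*Lef1*, a TCF/LEF factor that is also a target of the pathway, was measured at 1.61, 1.59, 1.60, 2.02 and 1.72 CPM in control replicates 1 to 5. Its *WD1* cKO values were 1.73, 1.67, 2.02, 1.68 and 1.67 CPM. The groups overlapped, each with 1 library at 2.02 CPM, and the log2 fold change of 0.036 (standard error 0.12, 95% interval from -0.23 to 0.31) was not larger than the spread between embryos. Its unadjusted p was 0.821 in edgeR's quasi-likelihood test, and the interval given is narrower than this p-value implies. The sign of the fold change turned without *WD1* cKO replicate 3, where it was -0.023.

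*Ctnnb1* varied the least of all members, with a coefficient of variation of 1.97% over the 10 libraries. It was measured at 575, 561, 577, 582 and 590.2 CPM in control replicates 1 to 5 and at 584, 589, 598, 600.4 and 581 CPM in *WD1* cKO replicates 1 to 5. The control range was exceeded by 2 *WD1* cKO libraries and the other 3 were in its upper part, and the log2 fold change was 0.033 (standard error 0.030, 95% interval from -0.031 to 0.098, unadjusted p = 0.283 in edgeR's quasi-likelihood test). The exact two-sided permutation test gave p = 0.063. The transcript of β-catenin thus differed by less than 0.1 on the log2 scale at either end of the interval, while its protein, through which the pathway is mainly regulated, was not measured.

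**Figure D3:**
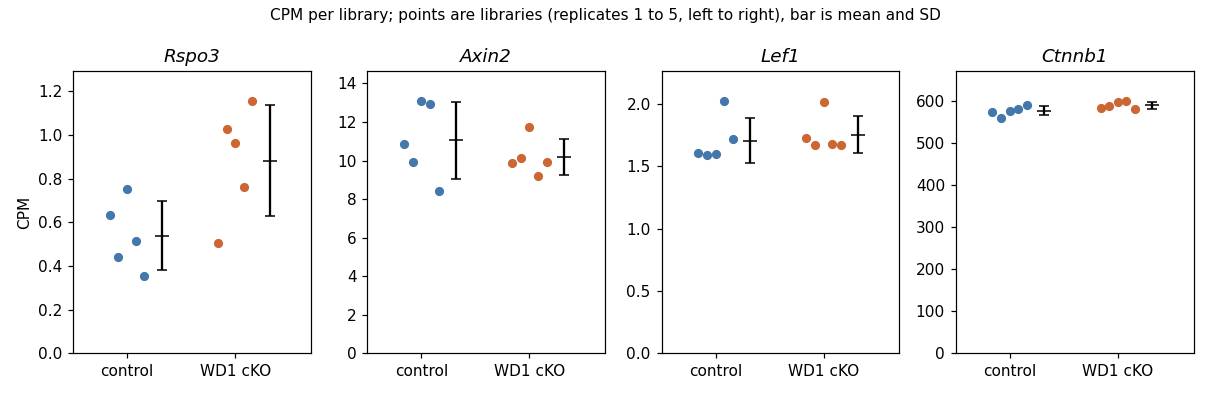
CPM of *Rspo3*, *Axin2*, *Lef1* and *Ctnnb1* in each library, with points for replicates 1 to 5 from left to right and a bar for mean and SD in each group (n = 5). *Rspo3* means are 0.539 in control and 0.882 in *WD1* cKO libraries, and the groups overlap in each panel.

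The 11 ligands tested had log2 fold changes from -0.23 for *Wnt5b* to 0.51 for *Wnt10b*. *Wnt10b*, encoding a ligand of canonical signalling, was measured at 0.537, 0.485, 0.330, 0.258 and 0.528 CPM in control and at 0.590, 0.418, 0.828, 0.711 and 0.491 CPM in *WD1* cKO replicates 1 to 5. The groups overlapped, and its unadjusted p was 0.082 in edgeR's quasi-likelihood test. *Wnt5a*, a ligand best known from non-canonical signalling, was at 11.4 ± 1.36 CPM in control and 12.8 ± 1.21 CPM in *WD1* cKO embryos, with a log2 fold change of 0.16 (95% interval from -0.039 to 0.36). *Wnt5b*, its paralogue, lay in the opposite direction, at 3.21 ± 0.454 CPM in control and 2.73 ± 0.50 CPM in *WD1* cKO embryos. For both, the interval included 0. *Wnt6* and *Wnt9a*, ligands with a high level in DRG, had log2 fold changes of 0.014 and 0.035.

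All 12 receptors had a 95% interval within 0.5 of 0 on the log2 scale, the tightest of the roles with more than 4 members. Their log2 fold changes ranged from -0.17 for *Fzd9* to 0.041 for *Fzd6*. *Fzd3*, the Frizzled receptor known for its role in axon guidance, was measured at 99.0 ± 4.62 CPM in control and 98.6 ± 4.21 CPM in *WD1* cKO embryos. *Lrp6*, the co-receptor, was at 89.8 ± 3.59 and 90.1 ± 6.53 CPM, respectively. Neither differed by more than the spread between embryos.

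Of the 7 genes tested in the antagonist group, *Sfrp5*, *Dkk3* and *Sfrp1* had log2 fold changes of -0.013, -0.0027 and 0.049. Only for *Sfrp2* and *Dkk1*, both at low levels, did the interval extend beyond 0.5. *Dkk1*, encoding an inhibitor of Lrp5 and Lrp6, was at 1.89 CPM in control replicate 5 and between 0.442 and 0.878 CPM in the other 9 libraries. Without that library its log2 fold change turned from -0.24 to 0.29, and neither value passed the test. The transcription factors *Tcf7l1*, *Tcf7* and *Tcf7l2* had log2 fold changes of -0.067, 0.018 and 0.075.

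The filter on low counts left out 9 members, 8 of them ligands. *Wnt1* itself had 1, 2, 0, 1 and 0 reads in control replicates 1 to 5, whereas *WD1* cKO replicates 1 to 5 had 4, 3, 6, 0 and 4 reads. The sums were 4 and 17 reads, and the ratio of *WD1* cKO to control was 3.61 after scaling for depth (95% interval from 1.18 to 14.7 for counting error only). Over the embryos, the exact two-sided permutation test gave p = 0.127. *Wnt1* was thus near the detection limit in all libraries, at 0.035 CPM in control and 0.12 CPM in *WD1* cKO embryos. The counts do not show from which allele the reads came. The 3 roof plate genes examined, which mark the dorsal midline where *Wnt1* is known, summed to between 0.529 and 1.07 CPM in control and between 0.418 and 0.762 CPM in *WD1* cKO libraries.

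*Wnt9b* had 9, 1, 2, 1 and 8 reads in control replicates 1 to 5 and 0, 2, 0, 1 and 1 reads in the *WD1* cKO replicates of the same numbers. Most control reads came from replicates 1 and 5, and the exact two-sided permutation test gave p = 0.063. *Wnt7b* was counted 33 times in control replicate 3 and between 5 and 15 times in the other libraries. Control replicate 3 is also the library with the highest sum of spinal cord genes, and the part of spinal cord in the *Wnt7b* count was not tested. *Wnt10a* summed to 30 and 38 reads and *Wnt2* to 32 and 29 reads in control and *WD1* cKO embryos. *Wnt3a* and *Wnt8a* summed to 4 reads in each group, and *Wnt8b* to 0 and 1. *Dkk4* had 0 reads in all libraries, which allows a level of up to 0.026 CPM in control and 0.022 CPM in *WD1* cKO embryos.

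**Figure D4:**
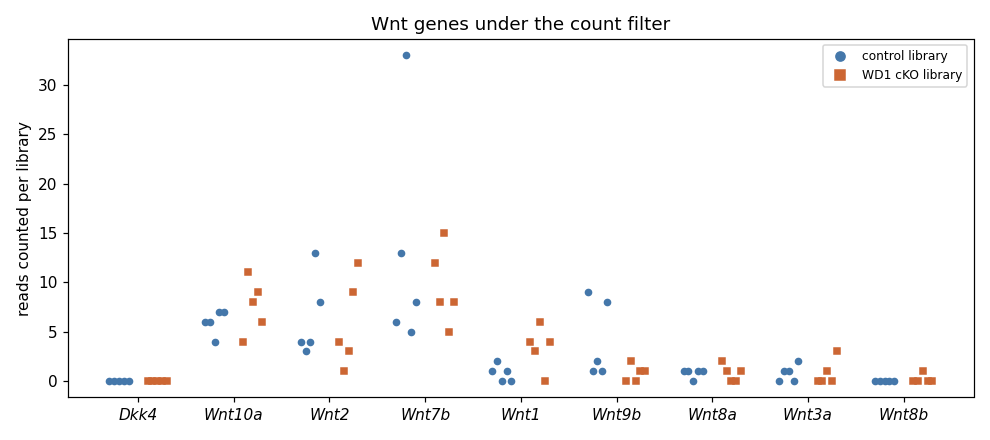
Reads counted per library for the 9 Wnt genes under the count filter, with circles for the 5 control and squares for the 5 *WD1* cKO libraries. *Wnt1* reaches 6 reads at most, and the 33 reads of *Wnt7b* are from control replicate 3.

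In the order of genes of GRCm38.p6, 4 pairs of members have no other protein-coding gene between them, which are *Wnt1* and *Wnt10b* on chromosome 15, *Wnt3* and *Wnt9b* as well as *Wnt3a* and *Wnt9a* on chromosome 11, and *Wnt6* and *Wnt10a* on chromosome 1. *Wnt10b*, the neighbour of *Wnt1*, had a log2 fold change of 0.51 and a 95% interval from -0.075 to 1.10. *Wnt3*, the neighbour of *Wnt9b*, was at 2.83 ± 0.553 CPM in control and 2.55 ± 0.220 CPM in *WD1* cKO embryos, a log2 fold change of -0.15 whose interval included 0.

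More members separated by replicate number than by genotype. The pattern was noticed in these data, and the labels do not say what the numbers stand for. In 11 of the 41 members (26.8%), replicates 4 and 5 of both groups did not overlap with replicates 1 to 3, against 11.2% of all genes tested. Replicates 4 and 5 were higher in 4 of these members, the ligand *Wnt2b*, the R-spondins *Rspo2* and *Rspo4* and the secreted *Dkk3*. They were lower in 7, the receptors *Fzd4*, *Fzd7*, *Fzd8* and *Lrp5*, the antagonist *Dkk2*, and *Tcf7l1* and *Tcf7l2*.

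*Wnt2b* was measured at 10.9, 8.64, 14.5, 25.0 and 27.8 CPM in control replicates 1 to 5 and at 10.3, 15.7, 11.9, 21.4 and 22.8 CPM in *WD1* cKO replicates 1 to 5. The ratio of its mean in replicates 4 and 5 to that in replicates 1 to 3 was 2.02, and between the genotypes its log2 fold change was -0.090 (95% interval from -0.79 to 0.60). *Rspo2* was between 40.3 and 54.2 CPM in replicates 4 and 5 and between 30.7 and 34.3 CPM in replicates 1 to 3, a ratio of 1.42. *Dkk3* was between 117 and 132 CPM against 82.8 to 102 CPM, a ratio of 1.34. In the opposite direction, *Tcf7l1* was between 13.7 and 16.3 CPM in replicates 4 and 5 and between 20.6 and 24.5 CPM in replicates 1 to 3, a ratio of 0.671. The ratios of the 4 receptors were between 0.824 and 0.852. Under the count filter, *Wnt2* was between 0.346 and 0.478 CPM in replicates 4 and 5 and between 0.038 and 0.195 CPM in replicates 1 to 3, on 1 to 13 reads per library.

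The blood genes moved with the same numbers, as given above, and their part in these differences was not tested. The numbers are balanced over the genotypes. With a term for replicates 1 to 3 against 4 and 5 in edgeR's model, 0 members had an adjusted and 1 an unadjusted p-value under 0.05. Among all 17490 genes tested, 11 and 1282 had one, respectively.

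**Figure D5:**
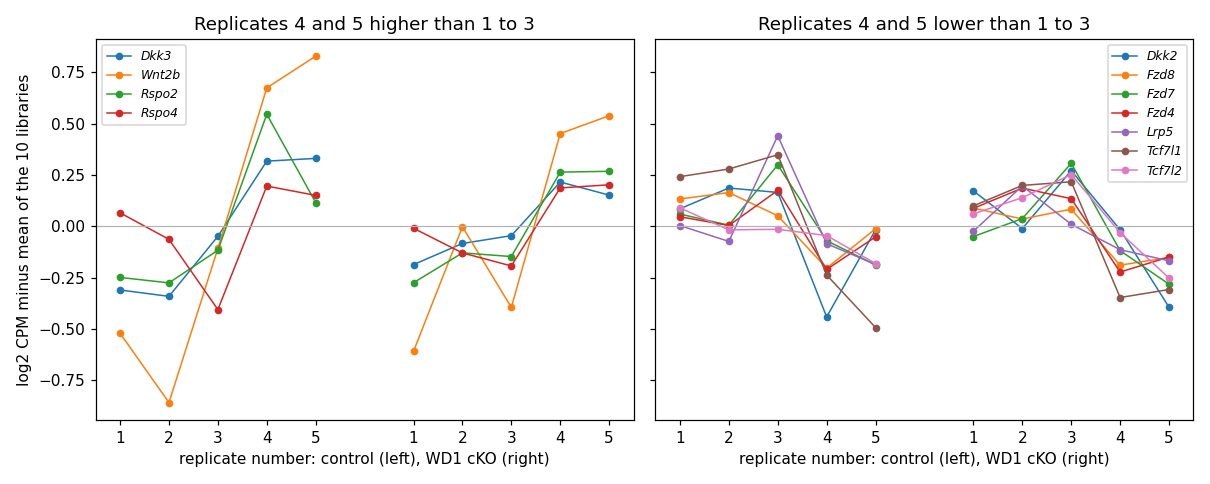
Log2 CPM of the 11 members in which replicates 4 and 5 separated from replicates 1 to 3, each minus its mean over the 10 libraries, in control and *WD1* cKO embryos by replicate number. Of these members, 4 are higher (left) and 7 lower (right) in replicates 4 and 5, and lines only join the points of a gene.

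A further 66 genes of the pathway outside the rule were taken from a fixed list of surface, secretion, intracellular, nuclear and target genes. *Sost* was the 1 gene that did not pass the filter on low counts. Of the 65 tested, 28 had a log2 fold change above and 37 below 0, with a median of -0.012. At an unadjusted p-value under 0.05, 1 was higher and 3 were lower in *WD1* cKO embryos, against 2.12% and 2.38% of all genes tested, and none passed the adjustment.

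*Ccnd1*, encoding cyclin D1, was the only higher gene among these 4, and the only 1 of the 11 target genes with such a p-value. It was at 68.4 ± 9.95 CPM in control and 85.2 ± 13.6 CPM in *WD1* cKO embryos. This is a log2 fold change of 0.32 (standard error 0.12, unadjusted p = 0.019 in edgeR's quasi-likelihood test). The exact two-sided permutation test gave p = 0.063. Without control replicate 2 or *WD1* cKO replicate 2 the unadjusted p of *Ccnd1* was 0.0505 and 0.0568, respectively. The lower genes were *Porcn*, encoding the acyltransferase that lipidates Wnt ligands, *Celsr3*, encoding a cadherin of planar cell polarity, and *Gsk3a*, encoding a kinase of the destruction complex. Their log2 fold changes were -0.098, -0.082 and -0.13. The highest unadjusted p on leaving out 1 library was 0.066 for *Porcn*, 0.072 for *Celsr3* and 0.091 for *Gsk3a*. Each of the other 10 target genes had an interval that included 0. The log2 fold change of *Notum*, encoding a secreted deacylase of Wnt ligands, was 0.36 with a wide interval from -0.48 to 1.21, and it was 0.12 for *Nkd1*, 0.0019 for *Lgr5*, -0.052 for *Sp5* and -0.085 for *Znrf3*.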

How the data were processed

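RNA of DRG dissected at E18.5 was sequenced in bulk (5 control, 5 *WD1* cKO embryos). The authors aligned reads with STAR 2.7.8a to GRCm39, assigned them to genes with featureCounts 2.0.1, and deposited raw counts per gene without normalization. The strand setting is not given in the sources used here, so members that overlap a gene on the other strand may hold its reads. Libraries were grouped by title, and libraries of a group differed beyond sampling noise (chi-square over degrees of freedom between 4.35 and 15.0). Controls were littermates, and which embryos share a litter is not given in the sources used here.

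Symbols (52081 of 55414 identifiers matched) and exon lengths came from GENCODE M21 on GRCm38, and promoter windows from RefSeq. Tests used edgeR 4.0.16 under R 4.3.3 (TMM, at least 10 counts in 5 libraries, quasi-likelihood test, Benjamini-Hochberg over 17490 genes) and DESeq2 1.42.0. Standard errors, and from them the intervals, were the absolute log2 fold change over the square root of the F statistic of the quasi-likelihood test. Permutation tests were exact and two-sided, with 1 as the prior count of log2 CPM. Scripts were tested on simulated data. Alternatives were other size factors, no filter, a stricter filter (mean count 100 or more), a replicate block, each library left out and, after seeing the data, a term for replicate sets.

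The members and lists were chosen with earlier results of these data known. Values are given per library for members with an unadjusted p under 0.05 and for *Wnt1*, *Axin2*, *Lef1* and *Ctnnb1*, means for the 3 members with the highest level per length in each role, and counts for members under the filter. Pathway genes outside the rule are named by an unadjusted p under 0.05. Other genes, among them *Wnt2b*, *Wnt10b*, *Wnt5a*, *Wnt5b*, *Fzd3*, *Lrp6*, *Dkk1*, *Notum*, *Nkd1*, *Lgr5*, *Sp5* and *Znrf3*, were named after their values were seen.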

Additional observations from a re-analysis of the deposited data

Results flagged for a closer look

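In 4 cases a library lay far from the other 4 of its group in a member, by Dixon's criterion at 95%. *Sfrp2* was at 3.15 CPM in control replicate 3 and between 1.18 and 1.67 CPM in the other controls. *Lrp5* was at 28.7 CPM in control replicate 3 and between 18.6 and 21.2 CPM in the other controls. *Wnt11* was at 2.78 CPM in *WD1* cKO replicate 3 and between 1.56 and 1.68 CPM in the other *WD1* cKO libraries. *Lef1* was at 2.02 CPM in *WD1* cKO replicate 3 and between 1.67 and 1.73 CPM in the other *WD1* cKO libraries. These are 4 of 82 groups examined, and chance flags about 1 in 20 groups. In control replicate 3, spinal cord genes summed to 37.5 CPM, and the connective tissue genes to 6281 CPM, the highest of the 10 libraries for both. Their part in the *Sfrp2* and *Lrp5* values was not tested.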

How the results depend on the processing

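No member had an adjusted p-value under 0.05 in any of the 16 alternatives, and the members' median log2 fold change stayed between -0.023 and 0.030. The number of members with an unadjusted p-value under 0.05 was 3 without the filter on low counts (*Rspo3*, *Wnt1* and *Wnt9b*, among 49 tested), 0 with a mean count of at least 100, where *Rspo3* was not among the 29 tested, and 1 to 2 when each library was left out. Of all genes in the same fits, 1496 had such a p-value without the filter and 577 with the stricter filter. With a library left out it was 639 to 965 genes, against 787 in the main fit. The number of genes tested differs between these fits. *Rspo3* kept an unadjusted p under 0.05 in all 15 alternatives that tested it, with a log2 fold change from 0.61 to 0.88. Without control replicates 1, 4 or 5 or *WD1* cKO replicates 2 or 4, 2 members had such a p-value. For the other pathway genes this number was 9 with the replicate number as a block, 8 with a term for replicates 1 to 3 against 4 and 5 (chosen after seeing the data), and 1 to 7 when each library was left out (1 without control replicate 2, 2 without control replicate 4 or *WD1* cKO replicate 5, and 7 without *WD1* cKO replicate 1). Among all 17490 genes tested, the number also rose, from 787 in the main fit to 1241 with the block and 1282 with the term. Of the 16 alternatives, *Ccnd1* had an unadjusted p under 0.05 in 14, *Porcn* in 11, *Gsk3a* in 11 and *Celsr3* in 10, with the direction kept in all of them. The cause was not tested. With a library left out, the log2 fold change changed sign for *Tcf7l1* (range -0.18 to 0.014, 0.014 without control replicate 3, 0.0031 and 0.00090 without *WD1* cKO replicates 4 and 5), *Sfrp2* (range -0.047 to 0.42, -0.0061 without control replicate 4, -0.047 without *WD1* cKO replicate 3), *Fzd6* (range -0.041 to 0.11, -0.041 without control replicate 4), *Dkk1* (range -0.42 to 0.29, 0.29 without control replicate 5) and *Lef1* (range -0.023 to 0.11, -0.023 without *WD1* cKO replicate 3).

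Same-numbered libraries of the groups correlated in their deviations from the group means by 0.319 to 0.391 for numbers 1, 3, 4 and 5, and by 0.036 for number 2. The correlation was not above 0.1 in every pair, so the numbers were not taken to pair embryos, a choice that rests on number 2. Libraries of unlike number also correlated, at 0.376 for control replicate 4 with *WD1* cKO replicate 5, above the 0.351 with its own number. For control replicate 2 with *WD1* cKO replicate 1 it was 0.326, and for control replicate 1 with *WD1* cKO replicate 2 it was 0.284. The replicate block left the members' counts at 0 adjusted and 1 unadjusted. Among all genes tested it gave 8 adjusted and 1241 unadjusted, against 7 and 787 in the main fit.

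Depth limits the ligands at a few reads per library, *Wnt1* among them.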
